A study of Mus musculus with 14 samples.

Results

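Endothelial cells line the inside of every blood and lymph vessel, and a set of 34 genes that mark or serve these cells was followed through brown and white fat of mice. The genes were found by their symbols in the deposited expression tables, which list 24421 genes, and each of the 34 had 1 row in every table. They code for receptors of growth factors, proteins of the junctions between endothelial cells, secreted proteins, enzymes and transcription factors. Endothelial cells answer to VEGF ligands through VEGF receptors and to angiopoietins through TIE receptors, hold together through VE-cadherin and its partners, and take their identity in part from transcription factors of the ETS and SOX families. Brown fat is known for a dense bed of capillaries, which brings fuel and oxygen to cells that make heat.

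The tissues were brown adipose tissue (BAT) and perigonadal white adipose tissue (WAT) of C57BL/6N mice, 4 samples each. The animals were 22 weeks old, lived at ambient temperature and had received a diet with 60% of its energy from fat over 14 weeks, so no lean group serves as a reference. A BAT cell line, put through differentiation with insulin, T3, dexamethasone and IBMX over 3 days, gave 3 samples with vehicle (DMSO) and 3 with 100 µM blebbistatin, which blocks the motor activity of non-muscle and muscle myosin II, each applied from day 7 over 24 h. It serves here as brown fat cells grown without vessels. Nothing in the labels ties each numbered sample to an animal or culture of its own, so every p-value here reflects sample-to-sample spread that may be technical. Reads in genes numbered 6859404 to 16091372 per WAT library, 1014959 to 2335058 per BAT library and 10685378 to 14176846 per cell library. Genes took 71.1% to 83.0% of mapped reads, as the deposited RPKM imply them, in WAT but 19.1% to 42.3% in BAT, with BAT 3 lowest. All 4 brown fat markers tested were higher in BAT, Ucp1 among them (0.691 ± 0.631 CPM in WAT and 15276 ± 3413 CPM in BAT), while the cells with vehicle held 67.3 ± 50.2 CPM of Ucp1 (SD, n = 3), although the labels describe their Ucp1 as comparable to that of BAT.

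Most of the endothelial genes stood higher in brown fat than in white fat. Levels are given as CPM, read counts divided by the library's TMM-scaled gene total, with means ± SD over 4 libraries unless said otherwise, and a gene was called where limma's test over all genes gave a Benjamini-Hochberg adjusted p under 0.05. Of 33 members tested, 26 were higher in BAT and 1, Plvap, was lower, where 29.4% of all 12754 genes tested were called higher and 33.3% lower. The other 6 (Lyve1, Cd34, Ece1, Cldn5, Vwf and Tal1) were not called, and Prox1 had too few reads to be tested. The members' median log2 fold change was 1.38, and that of all genes tested was -0.096. For 25 of the tested members every BAT library lay above every WAT library, and for 1 every BAT library lay below, against 27.2% and 31.2% of all genes tested. In a piece of whole tissue, more cells of a type and more RNA per cell cannot be told apart. The count of lower members was 2 without BAT 3, where Lyve1 was added, and without WAT 3, where Cd34 was added. The sum over the 34 genes ran from 1657 to 1944 CPM over the WAT libraries and from 3929 to 4566 CPM over the BAT libraries.

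The direction depends on what the reads are divided by. RPKM as deposited divides by all mapped reads, of which a smaller share lay in genes in BAT, and on it the median gene moved to log2 -1.51. On that scale 3 members (Emcn, Egfl7 and Rgcc) were called higher and 10 lower, against 6.55% and 74.3% of all genes, and the members' median was -0.029. With RPKM centred on library medians 27 members were higher and 1 lower, against 33.4% and 27.7% of all genes. The authors' deposited table, from edgeR, gives 25 members higher and 3 lower at an adjusted p under 0.05. The share of all genes under that cut in the authors' results was not counted here. All results below are relative to gene totals unless another scale is named.

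**Figure D1:**
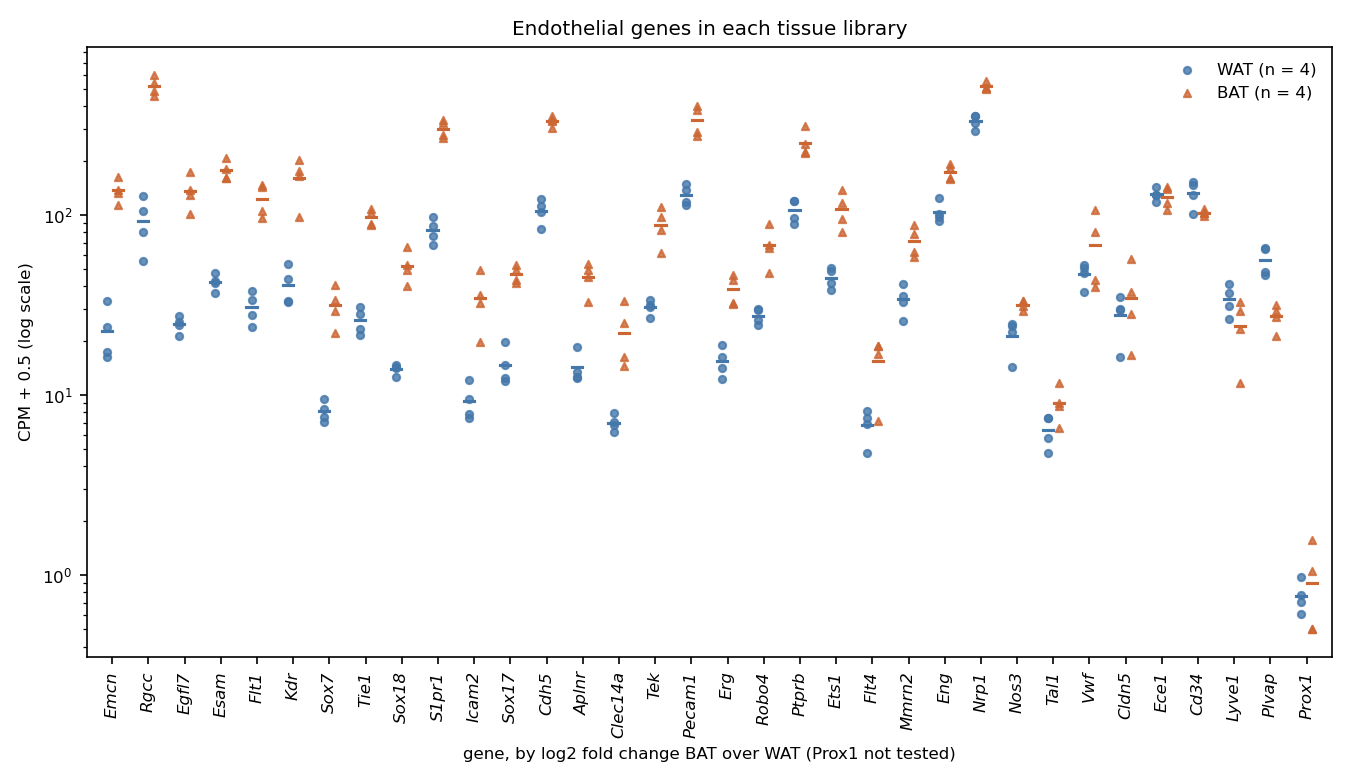
CPM + 0.5 (log axis) of each of the 34 endothelial genes in 4 WAT libraries (circles) and 4 BAT libraries (triangles), with a bar at each group mean and genes ordered by log2 fold change. From Emcn on the left to Nos3 the BAT points lie above the WAT points except for Flt4, the groups overlap from Tal1 to Lyve1, and only Plvap has all BAT points below all WAT points.

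Emcn, Rgcc and Egfl7 had the highest fold changes of the set. Emcn codes for endomucin, a sialomucin on the surface of capillary and venous endothelium, and it read 32.5, 23.2, 15.8 and 16.9 CPM in WAT 1 to 4 and 113, 163, 137 and 131 CPM in BAT 1 to 4 (log2 2.64, SE 0.21, adjusted p = 4.73e-07). Rgcc, a regulator of the cell cycle that is abundant in capillary endothelium, read 54.7, 79.5, 127 and 104 CPM in WAT 1 to 4 and 486, 599, 459 and 536 CPM in BAT 1 to 4 (log2 2.56, SE 0.22, adjusted p = 8.48e-07). Egfl7 codes for a secreted protein of the vessel matrix, and it read 20.6, 27.0, 25.0 and 24.0 CPM in WAT 1 to 4 and 137, 129, 100.5 and 171 CPM in BAT 1 to 4 (log2 2.43, SE 0.17, adjusted p = 1.29e-07). In each of the 3 genes the lowest BAT library stood more than 3-fold above the highest WAT library. Plvap forms the diaphragms that span the openings of fenestrated endothelium and caveolae, and it went the other way, with 64.8, 64.1, 45.7 and 47.4 CPM in WAT 1 to 4 and 30.9, 26.5, 28.9 and 20.8 CPM in BAT 1 to 4 (log2 -1.03, SE 0.18, adjusted p = 2.58e-04). The ratio of Emcn to Plvap, chosen after the values were seen, was 0.345 to 0.502 in the WAT libraries and 3.67 to 6.28 in the BAT libraries. The authors' files place, on build mm9, Emcn (NM_001163522) on the plus strand of chromosome 3 from 137004042 to 137094033, Rgcc (NM_025427) on the minus strand of chromosome 14 from 79688557 to 79701442, Egfl7 (NM_198724) on the plus strand of chromosome 2 from 26439384 to 26448202 and Plvap (NM_032398) on the minus strand of chromosome 8 from 74021652 to 74035668. The Egfl7 row spans the microRNA genes Mir126a and Mir126b, whose own rows held 3 and 2 reads over all 8 tissue libraries.

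Because so many members stood together, the windows around their starts were read for letters that ETS and SOX factors are known to bind. RefSeq windows on GRCm38.p6, from 250 bases before to 50 bases after a start, were found for 18 of the 34 members, and the start listed first was used for each gene. The following windows are those of the 3 highest fold changes and the 2 lowest among these 18, printed 5′ to 3′ on the gene's strand with each AGGAAG, a core bound by ETS factors, in capitals (CTTCCT where it lies on the other strand). They lie at chr3:137340828-137341127 (plus strand), chr14:79301586-79301885 (minus strand), chr2:26580833-26581132 (plus strand), chr1:194938571-194938870 (plus strand) and chr4:137861987-137862286 (plus strand), in this order.
Emcn: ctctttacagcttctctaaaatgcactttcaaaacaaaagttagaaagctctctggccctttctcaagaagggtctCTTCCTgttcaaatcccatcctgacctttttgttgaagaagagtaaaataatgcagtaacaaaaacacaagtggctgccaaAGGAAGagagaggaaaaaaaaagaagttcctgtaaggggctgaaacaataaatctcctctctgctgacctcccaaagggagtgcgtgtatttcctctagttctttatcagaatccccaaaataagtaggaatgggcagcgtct
Rgcc: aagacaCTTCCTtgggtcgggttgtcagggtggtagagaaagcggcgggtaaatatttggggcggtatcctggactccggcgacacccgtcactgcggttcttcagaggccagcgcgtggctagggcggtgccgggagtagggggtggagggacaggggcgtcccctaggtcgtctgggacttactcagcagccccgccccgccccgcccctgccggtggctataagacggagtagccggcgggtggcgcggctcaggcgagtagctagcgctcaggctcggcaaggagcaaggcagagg
Egfl7: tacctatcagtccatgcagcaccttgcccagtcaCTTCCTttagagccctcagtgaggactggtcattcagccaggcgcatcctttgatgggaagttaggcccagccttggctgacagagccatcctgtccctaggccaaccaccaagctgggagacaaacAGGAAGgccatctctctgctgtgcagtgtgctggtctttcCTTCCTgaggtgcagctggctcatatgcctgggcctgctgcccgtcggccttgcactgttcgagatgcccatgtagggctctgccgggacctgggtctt
Cd34: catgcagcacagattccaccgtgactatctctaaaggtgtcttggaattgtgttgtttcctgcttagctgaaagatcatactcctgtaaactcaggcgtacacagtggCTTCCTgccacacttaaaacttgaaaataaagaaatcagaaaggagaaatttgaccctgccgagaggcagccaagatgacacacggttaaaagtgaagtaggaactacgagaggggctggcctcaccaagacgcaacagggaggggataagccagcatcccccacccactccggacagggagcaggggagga
Ece1: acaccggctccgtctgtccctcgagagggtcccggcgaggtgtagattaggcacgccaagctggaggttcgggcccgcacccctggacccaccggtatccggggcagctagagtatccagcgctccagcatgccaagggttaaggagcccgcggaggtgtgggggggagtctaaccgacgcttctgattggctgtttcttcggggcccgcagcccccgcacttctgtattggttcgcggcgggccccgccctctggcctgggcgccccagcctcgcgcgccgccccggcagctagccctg
The ETS letters AGGAAG stood in 9 of the 18 windows and in 35.1% of 27025 windows of all genes. The form CGGAAG, which differs from it in the leading letter so that no stretch matches both, stood in 1 of 18 (5.56%, in Tie1) and in 17.2% of all. The SOX letters ACAATG stood in 0 of 18 and in 12.8% of all. Emcn held 2 matches to AGGAAG, Rgcc 1 and Egfl7 3, while Cd34, whose level was not called different, held 1 and Ece1 0. A match describes the letters of these windows and shows no bound factor.

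The VEGF receptors carry the signal that makes vessels sprout and survive, and all 4 were higher in BAT, although on RPKM as deposited Flt4 and Nrp1 had values below 0. Kdr, the main signalling receptor for VEGF-A on blood endothelium, read 32.4, 43.3, 52.7 and 32.5 CPM in WAT 1 to 4 and 173, 201, 163 and 97.0 CPM in BAT 1 to 4 (log2 1.95, SE 0.23, adjusted p = 1.14e-05). Flt1, which binds VEGF-A tightly and also VEGF-B, read 27.1, 37.0, 33.1 and 23.2 CPM in WAT 1 to 4 and 146, 143, 95.2 and 105 CPM in BAT 1 to 4 (log2 2.00, SE 0.19, adjusted p = 1.76e-06). The BAT libraries of both receptors lay above all WAT libraries, and the BAT libraries themselves spread about 2-fold for Kdr, with BAT 4 lowest. Flt4, the receptor for VEGF-C and VEGF-D on lymphatic and some blood endothelium, read 6.89, 7.60, 4.26 and 6.395 CPM in WAT 1 to 4 and 16.3, 6.63, 18.2 and 18.2 CPM in BAT 1 to 4 (log2 1.10, SE 0.33, adjusted p = 0.0104). BAT 2 lay among the WAT libraries for Flt4, the call rests on 95 BAT reads, and without BAT 3 and BAT 4 it was lost (log2 0.74, adjusted p = 0.0953). Nrp1, a co-receptor for VEGF and semaphorins that many other cells carry too, read 355, 353, 291 and 321 CPM in WAT 1 to 4 and 508, 554, 508 and 502 CPM in BAT 1 to 4 (log2 0.65, SE 0.13, adjusted p = 7.89e-04). All BAT libraries of Nrp1 lay above all WAT libraries, while on RPKM as deposited it was called lower (log2 -0.83, adjusted p = 0.0234).

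Their ligands are made mostly by the cells around the vessels and moved in both directions. Of 11 tested ligands and ligand-making or ligand-exporting genes of member receptors, 4 were higher in BAT, 3 were lower and 4 were not called. Vegfa, the chief attractant of new vessels, held 60.4 ± 12.5 CPM in WAT and 469 ± 176 CPM in BAT (log2 2.89, SE 0.25, adjusted p = 9.54e-07). Vegfb, a ligand of Flt1, held 45.6 ± 4.46 CPM in WAT and 188 ± 39.9 CPM in BAT (log2 2.02, SE 0.16, adjusted p = 3.26e-07). Figf, the row of VEGF-D, was lower in BAT (log2 -1.75, SE 0.31, adjusted p = 3.82e-04), and Vegfc did not pass the test (log2 -0.66, adjusted p = 0.237). In the cell line, where Kdr and Flt1 had 8 and 14 reads in all, Vegfa held 357 ± 138 CPM with vehicle (n = 3).

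The TIE receptors keep grown vessels stable. All 3 genes of this system on the list were higher in BAT, though Ptprb was at log2 -0.24 on RPKM as deposited and not called. Tie1, an orphan receptor of endothelium, read 21.0, 30.4, 27.5 and 22.6 CPM in WAT 1 to 4 and 87.6, 102, 88.8 and 107 CPM in BAT 1 to 4 (log2 1.91, SE 0.15, adjusted p = 4.14e-07). Tek, also called TIE2, the receptor of the angiopoietins, read 30.2, 31.1, 33.0 and 26.2 CPM in WAT 1 to 4 and 96.6, 109, 81.3 and 61.2 CPM in BAT 1 to 4 (log2 1.49, SE 0.18, adjusted p = 1.40e-05). Ptprb, the endothelial phosphatase that acts on Tek, read 95.8, 119, 119 and 88.8 CPM in WAT 1 to 4 and 312, 248, 224 and 219 CPM in BAT 1 to 4 (log2 1.24, SE 0.16, adjusted p = 2.28e-05). The lowest BAT library of each of the 3 genes stood above the highest WAT library. Angpt2, an angiopoietin that in many settings counters Tek signalling, was lower in BAT (39.6 ± 11.0 CPM in WAT and 5.84 ± 1.27 CPM in BAT; log2 -2.64, adjusted p = 1.29e-06). Angpt1, which activates Tek, did not pass the test (log2 0.61, adjusted p = 0.0985).

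Of 9 junction and surface genes, Emcn among them, 7 were higher in BAT, of which Pecam1 and Robo4 had RPKM fold changes of log2 -0.029 and -0.20, neither called. Cdh5, the VE-cadherin of endothelial junctions, read 111, 122, 103 and 83.2 CPM in WAT 1 to 4 and 355, 329, 337 and 304 CPM in BAT 1 to 4 (log2 1.67, SE 0.14, adjusted p = 7.00e-07). Pecam1, CD31, read 147, 136, 118 and 112 CPM in WAT 1 to 4 and 401, 383, 288 and 273 CPM in BAT 1 to 4 (log2 1.38, SE 0.16, adjusted p = 1.21e-05). Esam, an adhesion molecule of endothelial tight junctions, read 36.2, 47.0, 42.2 and 41.2 CPM in WAT 1 to 4 and 179, 159, 159 and 207 CPM in BAT 1 to 4 (log2 2.06, SE 0.14, adjusted p = 9.79e-08). For these 3 genes of the cell borders the groups did not overlap. Icam2 (log2 1.86, SE 0.27, adjusted p = 7.03e-05), the guidance receptor Robo4 (log2 1.27, SE 0.18, adjusted p = 6.66e-05) and the surface lectin Clec14a (log2 1.59, SE 0.27, adjusted p = 2.35e-04) were higher as well, and in each of them every BAT library exceeded every WAT library. Clec14a rests on 153 BAT reads. The remaining pair did not pass. Cldn5, a claudin of tight junctions, read 15.7, 29.5, 29.1 and 34.5 CPM in WAT 1 to 4 and 36.9, 27.6, 16.04 and 56.0 CPM in BAT 1 to 4 (log2 0.24, SE 0.34, adjusted p = 0.560), with BAT 3 near the lowest and BAT 4 above all other libraries. Cd34, a sialomucin of endothelium that fibroblast-like preadipocytes carry too, read 151, 128, 100.0 and 146 CPM in WAT 1 to 4 and 101.3, 101.2, 97.3 and 107 CPM in BAT 1 to 4 (log2 -0.35, SE 0.15, adjusted p = 0.0545). It was called lower by edgeR's quasi-likelihood test (adjusted p = 0.0470) and without WAT 3 (log2 -0.47, adjusted p = 0.0108), and in the authors' deposited table its adjusted p is 0.0181 (log2 -0.54).

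Secreted proteins of the vessel wall differed among themselves. Besides Egfl7, Mmrn2, a matrix protein that binds Clec14a, was higher in BAT (log2 1.08, SE 0.18, adjusted p = 2.30e-04), with log2 -0.38 on RPKM as deposited. Vwf, the clotting factor carrier stored in endothelium and platelets, read 49.8, 47.2, 52.0 and 36.5 CPM in WAT 1 to 4 and 106, 80.2, 42.8 and 39.0 CPM in BAT 1 to 4 (log2 0.41, SE 0.28, adjusted p = 0.220). BAT 1 and BAT 2 stood above all WAT libraries and BAT 3 and BAT 4 among them, and without those last 2 libraries, an alternative added after the values were seen, Vwf was called higher (log2 1.02, adjusted p = 7.53e-04). Of 2 platelet markers tested Pf4 was lower in BAT (log2 -1.09, adjusted p = 5.94e-04) and 1 was not called, and their part in the Vwf values was not tested.

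The 3 receptors of lipid and peptide signals were higher in BAT, with Eng turning to lower on RPKM as deposited (log2 -0.73, adjusted p = 0.0395). S1pr1, the sphingosine 1-phosphate receptor that tightens the vessel wall, read 85.9, 96.6, 67.3 and 76.1 CPM in WAT 1 to 4 and 337, 322, 277 and 265 CPM in BAT 1 to 4 (log2 1.88, SE 0.15, adjusted p = 3.58e-07). Aplnr, the apelin receptor, read 12.8, 17.97, 11.9 and 11.98 CPM in WAT 1 to 4 and 48.9, 44.8, 32.1 and 52.7 CPM in BAT 1 to 4 (log2 1.67, SE 0.20, adjusted p = 1.31e-05). Eng, endoglin, a co-receptor for BMP9 and TGF-beta, read 99.8, 123, 96.7 and 92.4 CPM in WAT 1 to 4 and 182, 157, 191 and 159 CPM in BAT 1 to 4 (log2 0.74, SE 0.14, adjusted p = 4.52e-04). All 3 genes separated the tissues, Eng by the smallest margin. On the ligand side Spns2, an exporter of sphingosine 1-phosphate, was higher in BAT (log2 1.60, SE 0.27, adjusted p = 2.45e-04) and Sphk1, a kinase that makes it, was lower (log2 -1.78, SE 0.36, adjusted p = 9.26e-04). Apln, the ligand of Aplnr, did not pass the test (log2 0.24, adjusted p = 0.585).

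Of 2 enzymes 1 was higher in BAT and 1 did not pass. Nos3, the endothelial nitric oxide synthase, read 23.5, 24.1, 21.8 and 13.8 CPM in WAT 1 to 4 and 30.5, 32.6, 28.9 and 32.5 CPM in BAT 1 to 4 (log2 0.60, SE 0.19, adjusted p = 0.0144). The Nos3 call was lost without TMM scaling (adjusted p = 0.0656) and without the filter on low counts (adjusted p = 0.0935), and on RPKM as deposited the gene was called lower (log2 -0.84, adjusted p = 0.0290). The authors' deposited table does not call Nos3 (log2 0.42, adjusted p = 0.152). Ece1, which cuts endothelin into its active form and is made by many cells, read 129, 128, 143 and 117 CPM in WAT 1 to 4 and 141, 138, 106 and 115 CPM in BAT 1 to 4 (log2 -0.053, SE 0.14, adjusted p = 0.752). The WAT and BAT libraries of Ece1 overlapped.

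Of 7 transcription factors 5 were higher in BAT, although Erg and Ets1 stood at log2 -0.099 and -0.18 on RPKM as deposited, neither called. Sox18, Sox7 and Sox17, the SOX factors of endothelial fate, had fold changes of 3.69, 3.81 and 3.23. Sox18 read 13.6, 13.8, 14.1 and 11.98 CPM in WAT 1 to 4 and 48.5, 52.0, 39.6 and 65.7 CPM in BAT 1 to 4 (log2 1.88, SE 0.17, adjusted p = 1.42e-06). Sox7 (log2 1.93, SE 0.21, adjusted p = 7.19e-06) and Sox17 (log2 1.69, SE 0.19, adjusted p = 6.54e-06) showed the same separation of all BAT from all WAT libraries. The ETS factors Erg (log2 1.33, SE 0.19, adjusted p = 7.37e-05) and Ets1 (log2 1.24, SE 0.18, adjusted p = 5.78e-05) were higher too, Erg being largely endothelial and Ets1 also present in lymphocytes and mesenchymal cells. Tal1, a factor of blood and early vessels, rests on 55 BAT reads and did not pass (log2 0.49, SE 0.27, adjusted p = 0.128).

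Neither Prox1 nor Lyve1, the members read here as lymphatic, was called in the main test. Flt4, which lymphatic and some blood endothelium carry, was called higher in BAT as given above (log2 1.10, adjusted p = 0.0104, 95 BAT reads). Prox1, the factor that sets lymphatic identity, had 13 reads in all WAT libraries and 2 in all BAT libraries and was not tested. The WAT libraries were deeper, and its level was 0.264 ± 0.154 CPM in WAT and 0.406 ± 0.514 CPM in BAT, so these reads show no direction. Lyve1, a hyaluronan receptor of lymphatic endothelium that some macrophages carry too, read 36.1, 30.8, 40.5 and 26.0 CPM in WAT 1 to 4 and 22.8, 11.1, 32.1 and 28.6 CPM in BAT 1 to 4 (log2 -0.57, SE 0.29, adjusted p = 0.101). It was called lower in BAT without BAT 3 (log2 -0.75, adjusted p = 0.0432), and the authors' deposited table gives it as lower too (log2 -0.70, adjusted p = 0.0324). Of 3 tested genes on a list of further lymphatic markers, 0 were higher and 2 lower in BAT, Pdpn (log2 -2.76, adjusted p = 4.30e-07) and Nrp2 (log2 -1.32, adjusted p = 9.19e-06), and Ccl21a had no reads in any tissue library. In the cells with vehicle, grown without vessels, Nrp2 held 143 CPM and Pdpn 10.1 CPM (n = 3). The part of cells other than lymphatic endothelium in the tissue values of Pdpn and Nrp2 was not tested. The sum of macrophage markers ran from 6690 to 9002 CPM over the WAT libraries and from 504 to 1187 CPM over the BAT libraries, and their part in the Lyve1 values was not tested.

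To see which members differed from the rest of the endothelial signal, each library was also set relative to the mean log2(CPM + 0.5) of 4 genes found mainly in endothelium, Cdh5, Tie1, Esam and Clec14a. On this scale 84.7% of all genes tested were called lower in BAT and 5.38% higher, since the reference genes are themselves higher in BAT. Of the 29 other members tested 3 were higher, 15 were lower and 11 were not called, with a median of -0.54 against -1.90 over all genes. The 3 higher ones were Emcn (log2 0.83, SE 0.23, adjusted p = 0.00245), Rgcc (log2 0.76, SE 0.22, adjusted p = 0.00412) and Egfl7 (log2 0.63, SE 0.18, adjusted p = 0.00358). Kdr (log2 0.14, SE 0.21, adjusted p = 0.536), Flt1, Sox7, Sox18, Sox17, S1pr1, Icam2 and Aplnr lay nearer to 0 than Tek (log2 -0.32, SE 0.18, adjusted p = 0.111), and none of these 9 was called. Erg and Flt4, at log2 -0.48 and -0.70, were not called either. Among the VEGF receptors Nrp1 was lower than the reference (log2 -1.15, SE 0.17, adjusted p = 7.97e-06), and its difference from Kdr and Flt1 was not tested.

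Farthest below the reference were Plvap (log2 -2.84, SE 0.20, adjusted p = 1.13e-09), Lyve1 (log2 -2.38, SE 0.32, adjusted p = 6.79e-06), Cd34 (log2 -2.16, SE 0.19, adjusted p = 1.83e-08) and Ece1 (log2 -1.86, SE 0.16, adjusted p = 8.53e-09). Cldn5, Vwf, Tal1, Nos3 and Eng followed at log2 -1.57, -1.39, -1.32, -1.21 and -1.06, each called. Mmrn2, Ets1, Ptprb, Robo4 and Pecam1 lay between log2 -0.73 and -0.43 and lost their calls with Pecam1, Cdh5, Tek and Robo4 as the reference, or belonged to it. With that other reference Emcn, Rgcc and Egfl7 stayed higher (log2 1.19, 1.11 and 0.98), and Kdr, Flt1 and S1pr1 were called higher too (log2 0.50, 0.55 and 0.43). The share of all genes called higher against that reference was not counted. Esam and Tie1, no longer part of the reference, were called higher against it as well (log2 0.61 and 0.46, adjusted p = 0.00312 and 0.0245), so calls near the reference depend on which genes form it. Plvap, Lyve1, Cd34, Ece1, Cldn5, Vwf, Tal1, Nos3, Nrp1 and Eng were called lower with both references.

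**Figure D2:**
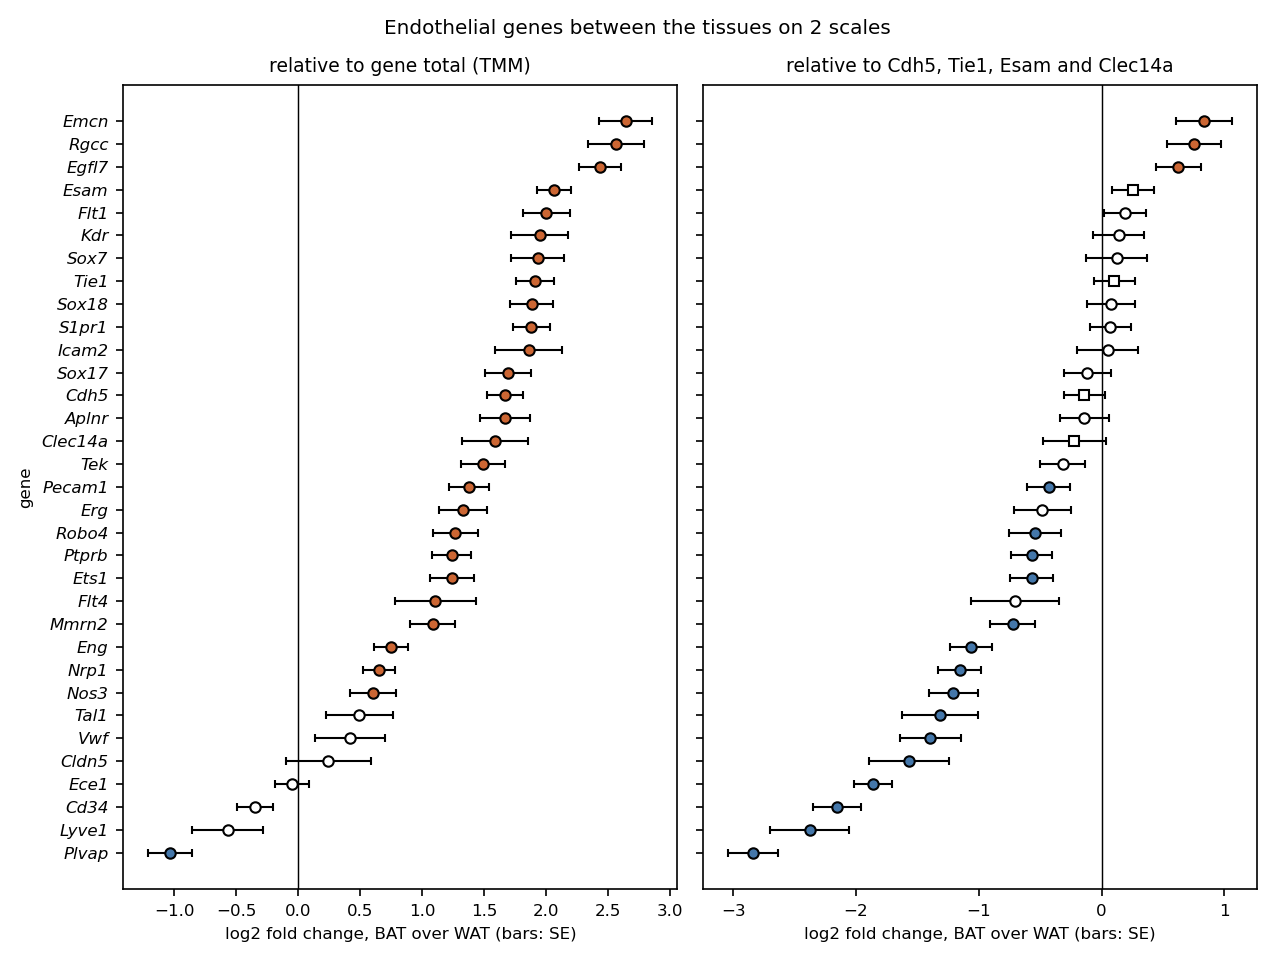
Log2 fold change of BAT over WAT (points, bars: SE, n = 4 each) for 33 endothelial genes relative to gene totals (left) and relative to Cdh5, Tie1, Esam and Clec14a (right). Filled points were called, orange higher and blue lower, open circles were not called, and open squares on the right are the reference genes, which are left out of the counts there. Emcn, Rgcc and Egfl7 are orange in both panels and Plvap is blue in both, as on RPKM, whereas Cd34, Lyve1 and Ece1 are open on the left and blue on the right.

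Lists of other vessel genes, which hold none of the 34, were read beside them. Of 15 further genes found throughout endothelium 10 were higher in BAT, 2 lower and 3 not called (median log2 1.56), among them the adhesion receptors Adgrl4 (log2 1.96, SE 0.18, adjusted p = 1.66e-06) and Adgrf5 (log2 1.69, SE 0.15, adjusted p = 1.06e-06). Myct1 (log2 2.71, SE 0.21, adjusted p = 2.76e-07) and the exchange factor Arhgef15 (log2 2.44, SE 0.19, adjusted p = 3.15e-07) were higher as well. The 2 lower ones were Cd93 (log2 -0.93, SE 0.15, adjusted p = 2.14e-04), which myeloid cells carry too, and Calcrl (log2 -0.67, SE 0.22, adjusted p = 0.0171), a receptor for adrenomedullin. Of 12 arterial and Notch genes 9 were higher and 0 lower (median log2 1.68), such as the artery marker Efnb2 (log2 2.45, SE 0.17, adjusted p = 1.44e-07), the gap junction gene Gja4 (log2 1.57, SE 0.22, adjusted p = 4.62e-05), the Notch target Hey1 (log2 2.24, SE 0.20, adjusted p = 1.01e-06) and the Notch ligand Dll4 (log2 1.99, SE 0.22, adjusted p = 6.85e-06). The cells with vehicle, grown without vessels, held 24.8 CPM of Efnb2 (n = 3), between its tissue means of 7.39 (WAT) and 42.9 CPM (BAT). Gja4, Hey1 and Dll4 stood at 0.394, 0.654 and 0.0552 CPM in these cells. The list summed to 284 to 314 CPM there, above the WAT libraries (168 to 210) and below the BAT libraries (364 to 431). Not all of it is thus particular to arteries. The part of cells other than endothelium in its tissue values was not tested.

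Of 9 genes of capillaries and lipid transport 7 were higher in BAT and 1 lower (median log2 1.26). Gpihbp1, which holds lipoprotein lipase on capillary endothelium, held 71.2 ± 3.35 CPM in WAT and 474 ± 69.5 CPM in BAT (log2 2.71, SE 0.13, adjusted p = 1.02e-08). Mfsd2a, a transporter of lipids known from the blood-brain barrier, had 6 reads in all WAT libraries and 297 in all BAT libraries, and it was called higher (adjusted p = 1.59e-08). Meox2 (log2 1.26, SE 0.22, adjusted p = 3.31e-04) and Tcf15 (log2 2.56, SE 0.35, adjusted p = 3.87e-05), factors that drive fatty acid uptake in endothelium, were higher too, and Cd36, a fatty acid transporter that fat cells and macrophages also carry, was lower (log2 -0.90, SE 0.17, adjusted p = 6.27e-04). In the cells with vehicle, grown without vessels, Gpihbp1, Meox2 and Tcf15 had 0 reads. Mfsd2a held 1.33 CPM there and Cd36 320 CPM (n = 3). The list summed to 3593.5 to 6088.1 CPM in these cells, so not all of it is particular to capillaries. The part of fat cells in its tissue values was not tested.

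Venous and adhesion genes divided. Of 6 tested 1 was higher, the vein marker Ephb4 (log2 1.27, SE 0.17, adjusted p = 3.30e-05), and 2 were lower, the leukocyte adhesion molecules Vcam1 (log2 -1.69, SE 0.22, adjusted p = 2.92e-05) and Icam1 (log2 -1.48, SE 0.23, adjusted p = 1.06e-04). Nr2f2, a factor of venous fate, did not pass (log2 0.49, adjusted p = 0.0506). Ephb4 held 63.8 CPM in the cells with vehicle, grown without vessels (n = 3), beside tissue means of 25.0 (WAT) and 60.3 CPM (BAT). This venous list summed to 173.5 to 244.8 CPM in these cells, so not all of it is particular to veins. The part of cells other than endothelium in its tissue values was not tested. Of 11 genes carried by the mural cells that wrap vessels, 8 were higher, 2 lower and 1 not called (median log2 1.504). Rgs5, a marker of pericytes, held 112 ± 18.2 CPM in WAT and 856 ± 132 CPM in BAT (log2 2.93, SE 0.16, adjusted p = 2.43e-08), and the potassium channel Kcnj8 (log2 2.52, SE 0.20, adjusted p = 3.26e-07) and Cnn1 (log2 2.43, SE 0.47, adjusted p = 6.04e-04) were higher too. Mcam (log2 -1.47, SE 0.17, adjusted p = 9.01e-06) and Acta2 (log2 -0.54, SE 0.16, adjusted p = 0.00938) were lower and Pdgfrb was not called (log2 -0.30, adjusted p = 0.0579). The mural list summed to 1000 to 1178 CPM in the cells with vehicle, above the WAT libraries (699 to 779) and below the BAT libraries (1285 to 1637). Pdgfrb held 485 and Acta2 271 CPM there, whereas Rgs5 and Kcnj8 held 0.173 and 0.0237 CPM (n = 3). Not all of this list is thus particular to mural cells, and the part of other cells in its tissue values was not tested.

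Markers of cells that do not belong to vessels moved between the tissues at the same time. All 12 macrophage genes were lower in BAT (Adgre1 log2 -4.87, adjusted p = 8.51e-07; Csf1r log2 -3.76, adjusted p = 2.32e-08). All 8 skeletal muscle genes, such as Ckm and Acta1, were higher in BAT, and their sum went from 2056 to 31792 CPM over the BAT libraries, highest in BAT 4, against 19.0 to 42.8 CPM over the WAT libraries. Of 7 fibroblast and preadipocyte genes 6 were lower and 1 higher, and all 4 mesothelial genes were lower, with Msln and Upk3b at 0 reads in BAT. Of 6 general fat cell genes 2 were higher and 4 were not called, Adipoq among the latter (log2 0.039, adjusted p = 0.872), and 0 of 5 lymphocyte genes had enough reads to be tested. The part of these shifts in the members' fold changes was not tested. Without BAT 3, the shallowest library, and BAT 4, the one with the most muscle transcripts, 26 members were higher and 2 lower. Over all 15 lists, vessels and other cells together, 54 genes were higher and 35 lower, out of the numbers tested that are given with each list. Of all genes tested 29.4% were higher and 33.3% lower. On RPKM as deposited 25 of the same list genes were higher and 56 lower, where 6.55% and 74.3% of all genes tested were called so.

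**Figure D3:**
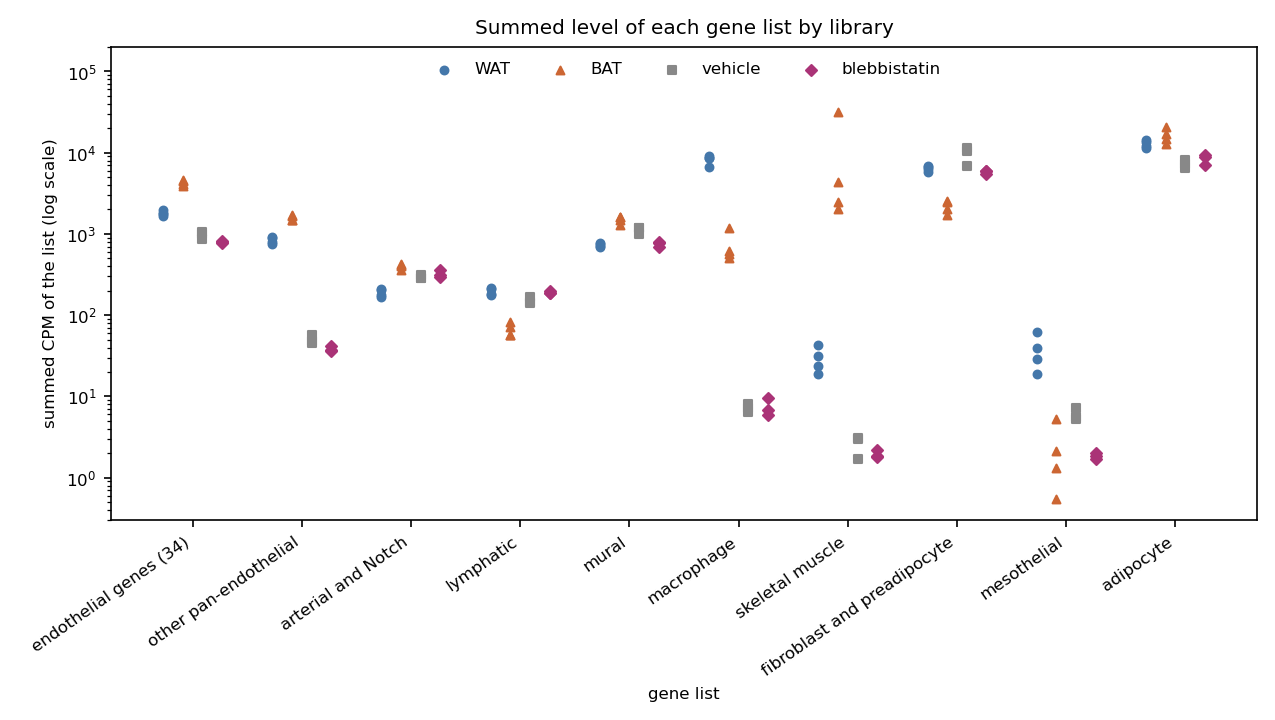
Summed CPM (log axis) of 10 gene lists in each of 14 libraries, WAT (circles), BAT (triangles), cells with vehicle (squares) and cells with blebbistatin (diamonds). The 34 endothelial genes, the further endothelial genes and the mural genes lie higher in every BAT library than in every WAT library, the macrophage, lymphatic, fibroblast and mesothelial lists lie lower, and the muscle list ranges from 2056 to 31792 CPM within BAT.

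Divided by exon length, the 34 genes spread over several orders of magnitude in BAT. Rgcc led with 573 ± 67.8 CPM per kb (SD, n = 4). Pecam1 (101.5 ± 19.7), S1pr1 (99.2 ± 11.4), Egfl7 (97.7 ± 21.1), Esam (95.3 ± 12.3) and Emcn (93.9 ± 14.1) followed, in CPM per kb, with overlapping libraries. Of the 33 pairs of neighbours in this order only 4 did not overlap, namely Rgcc over Pecam1, Cdh5 over Eng, Eng over Cd34 and Tal1 over Prox1. In WAT Rgcc led as well (100.7 CPM per kb), but Nrp1 (55.9) and Cd34 (50.2), both also carried by other cells, took the next places, and Plvap stood at rank 6 in WAT and 23 in BAT. Emcn went from rank 13 to 6 and Egfl7 from 12 to 4. Within BAT the largest spread relative to the mean, among members tested, was that of Cldn5 and Vwf, with coefficients of variation of 0.494 and 0.477, and the smallest was that of Cd34 with 0.0380. The 34 genes lie on 14 chromosomes, at most 4 on one of them. For Cdh5, Cd34, Eng and Nos3 the files list a gene on the opposite strand that overlaps the span, of which Atg9b with Nos3 and Fpgs with Eng had the most tissue reads relative to the member, 190 and 470, and whether the counting used strand is not given in the sources used here.

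The BAT cell line, grown without vessels, carried some of these genes and not others. Cell and tissue tables were scaled separately, so levels are set side by side with no test. Of the 34 genes 6 (Tie1, Cldn5, Robo4, Emcn, Sox17 and Prox1) had 0 of 72190163 gene reads in the 6 cell libraries, which at a floor of 3 reads allows up to 0.0416 CPM (counting error only). A further 15, such as Cdh5 with 1 read and Pecam1 with 10, were under 1% of their BAT mean, and the remaining 13 were above 1%. The last group held Nrp1 (518 CPM on average, 100.1% of the BAT mean), Ece1 (173 CPM, 139%), Ets1 (66.9 CPM, 62.8%), Eng (44.5 CPM, 25.8%), Rgcc (37.1 CPM, 7.13%) and S1pr1 (23.7 CPM, 7.91%). Clec14a, used above as a reference gene, held 5.55 CPM in the cells, 25.6% of its BAT mean, whereas the other 3 reference genes were under 1%.

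Of 21 members under the count filter in the cells 20 were tested in tissue, and of these 16 were higher in BAT, 0 lower and 4 not called, with a median log2 of 1.67. Of the 13 that passed the filter in the cells 10 were higher, 1 lower and 2 not called, with a median of 1.08. The difference between these groups was not tested.

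**Figure D4:**
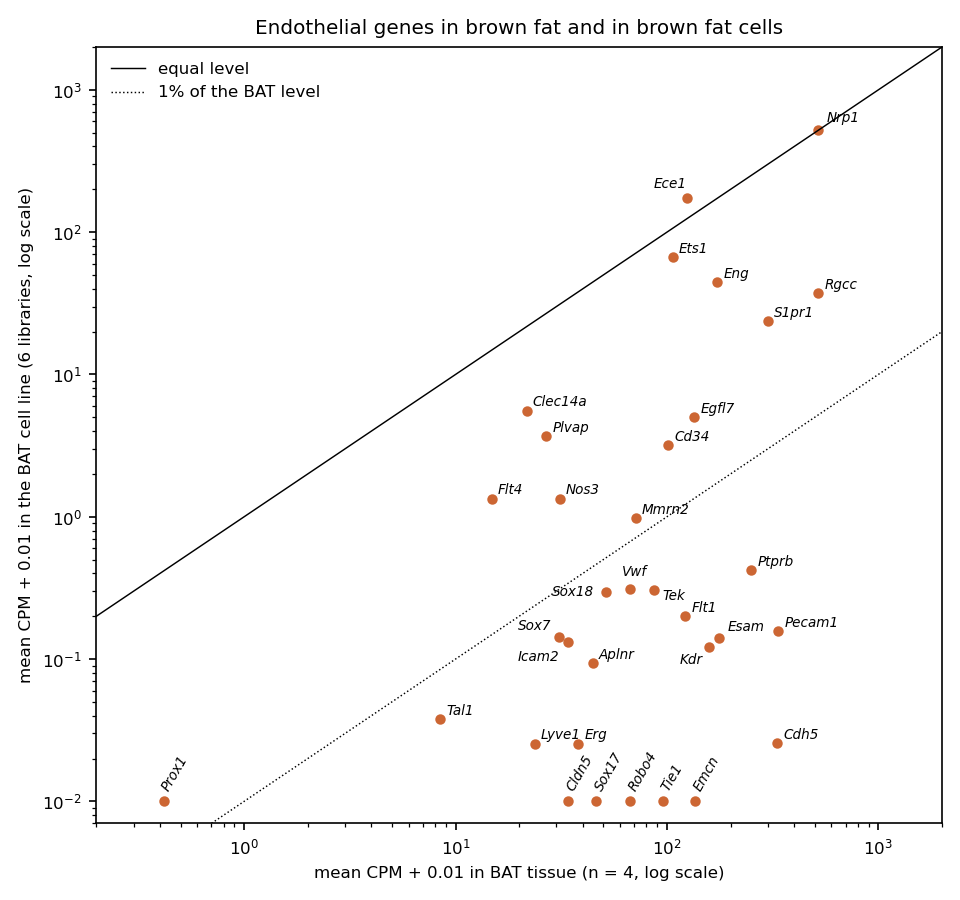
Mean CPM + 0.01 of the 34 endothelial genes in BAT tissue (horizontal, n = 4) and in the BAT cell line (vertical, 6 libraries), both on log axes, with lines at equal level and at 1% of the BAT level. Nrp1 lies on the line of equality and Ece1 above it, 13 genes with reads in the cells lie above the 1% line, and Tie1, Cldn5, Robo4, Emcn, Sox17 and Prox1, with 0 reads, lie at the bottom where only the added 0.01 is drawn.

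The title of the series puts tension from actin and myosin at the centre of the study, and the cell experiment asks what blocking myosin changes. Of 13 members tested 0 were called higher and 1 lower, S1pr1, where 0.133% of all 12808 genes tested were called higher and 0.734% lower. S1pr1 read 27.3, 31.6 and 41.1 CPM in vehicle 1 to 3 and 14.2, 13.7 and 14.6 CPM in blebbistatin 1 to 3 (log2 -1.19, SE 0.16, unadjusted p = 7.78e-05, adjusted p = 0.0221). Every blebbistatin library lay below every vehicle library, by about 2-fold. The authors' deposited table gives it log2 -1.23 with an adjusted p of 3.38e-07. The call was lost without vehicle 2 or vehicle 3 (adjusted p = 0.150 and 0.0644), without blebbistatin 1 or blebbistatin 2 (adjusted p = 0.101 each) and on RPKM as deposited (adjusted p = 0.101), with log2 from -1.32 to -1.03 over all alternatives.

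Rgcc read 43.8, 55.6 and 42.7 CPM in vehicle 1 to 3 and 25.7, 35.6 and 19.0 CPM in blebbistatin 1 to 3 (log2 -0.85, SE 0.22, unadjusted p = 0.00509, adjusted p = 0.152). It missed the threshold in the main test, was called lower by DESeq2 (log2 -0.83, adjusted p = 0.0211), and has an adjusted p of 0.0167 in the authors' deposited table. The highest blebbistatin library of Rgcc lay below the lowest vehicle library. Nrp1 read 508, 610.2 and 631 CPM in vehicle 1 to 3 and 441, 483 and 436 CPM in blebbistatin 1 to 3 (log2 -0.36, SE 0.12, unadjusted p = 0.019, adjusted p = 0.281). Cd34 (log2 -0.51, SE 0.22, unadjusted p = 0.0432, adjusted p = 0.375) and Mmrn2 (log2 -0.58, SE 0.25, unadjusted p = 0.0475, adjusted p = 0.392) were the other 2 of 5 members with an unadjusted p under 0.05. The share of all genes under this unadjusted cut was not counted. All 5, picked by their small p, had blebbistatin libraries below the vehicle libraries, as did Egfl7 and Ets1. In all, 7 of 13 members had groups that did not overlap and were lower, against 9.99% of all genes. For 0 of 13 the groups did not overlap and were higher, against 9.63%. The median log2 of the 13 members was -0.31 and that of all genes tested 0.0073. Ece1, at 173 ± 15.6 CPM with vehicle and 174 ± 15.7 CPM with blebbistatin, had a log2 fold change of 0.014. Eng (log2 -0.037, SE 0.16, unadjusted p = 0.819, adjusted p = 0.956), Plvap, Clec14a, Flt4 and Nos3 overlapped between the conditions, and Flt4, Nos3 and Mmrn2 held about 1 CPM.

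**Figure D5:**
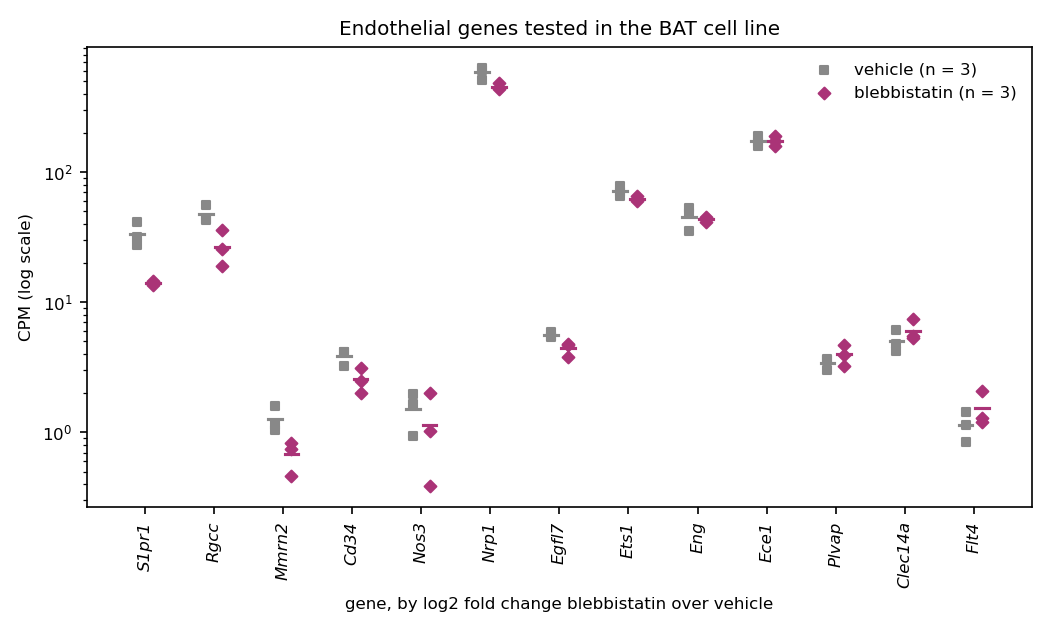
CPM (log axis) of the 13 endothelial genes tested in the BAT cell line, with vehicle (squares, n = 3) and 100 µM blebbistatin (diamonds, n = 3), bars at group means, ordered by log2 fold change. S1pr1 on the left falls from 27.3 to 41.1 CPM with vehicle to 13.7 to 14.6 CPM with blebbistatin, and the points overlap in Nos3, Eng and the genes to the right of Eng.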

How the data were processed

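The mRNA of 8 tissue and 6 cell samples was sequenced with a stranded kit, per the labels. The submitters' processing notes name STAR, HOMER, edgeR and build mm9, with no versions. The authors deposited gene signal, read counts scaled by 1 factor per library, from which whole reads were recovered (100% of 198938 values of up to 1000 reads within 0.1 of a whole read). The authors also deposited RPKM, log2 fold changes and edgeR p-values. 1 sheet of myosin RPKM was not used.

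CPM here are recovered reads over gene totals times a TMM factor. Genes passed edgeR's filterByExpr (minimum count 10, total 15). The main test was limma (trend, robust) on log2(CPM + 0.5) with group as the only term, each experiment apart, and Benjamini-Hochberg adjustment over all genes tested. Fold changes on this scale understate those of low genes. Alternatives were DESeq2, edgeR's quasi-likelihood test, other pseudocounts (0.1 and 2), no filter, no TMM, RPKM (log2 of RPKM + 0.1), a replicate block and left-out libraries. Scripts were tested on simulated data. Software was limma 3.58.1 under R 4.3.3, with DESeq2 1.42.0 and edgeR 4.0.16. BAT libraries, the shallowest, give few reads to low genes.

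The members and lists were chosen with earlier results of these data known. All 34 members could be named. Of each further list the leading 2 genes and the 3 largest called rises and falls could be named. Promoter windows are RefSeq's on GRCm38.p6.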

Additional observations from a re-analysis of the deposited data

Results flagged for a closer look

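Of 70 groups of 4 libraries checked (34 members in each tissue and their sum), 3 held a library far from the others, where chance gives about 1 in 20 groups. Flt4 in BAT 2 held 6.63 CPM, below the other BAT libraries at 16.3 to 18.2 CPM and within the WAT range. Nrp1 in BAT 2 held 554 CPM, above the other BAT libraries at 502 to 508 CPM. Aplnr in WAT 2 held 17.97 CPM, above the other WAT libraries at 11.9 to 12.8 CPM. Without BAT 2 the log2 fold change of Flt4 was 1.43, that of Nrp1 0.61, and without WAT 2 that of Aplnr 1.80, and all 3 were called higher in BAT.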

How the results depend on the processing

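Leaving out each library in turn, the number of members higher in BAT stayed at 26, the number lower was 1 to 2, and the number called in the cells was 0 to 1. Relative to the reference genes these counts were 17 to 20 in all. RPKM as deposited called 6.55% of all genes tested higher and 74.3% lower. It gave 13 called members, 3 higher and 10 lower, and for the other lists 25 higher and 56 lower. It turned the fold changes of Flt4 (-0.28), Nrp1 (-0.83), Ptprb (-0.24), Pecam1 (-0.029), Cldn5 (-1.22), Robo4 (-0.20), Mmrn2 (-0.38), Vwf (-1.02), Eng (-0.73), Nos3 (-0.84), Erg (-0.099), Ets1 (-0.18) and Tal1 (-0.84) below 0, and dividing by all mapped reads shifts the median gene to -1.51. The number lower was 2 by edgeR's quasi-likelihood test, 3 without TMM, 2 without the filter and 2 without BAT 3 and BAT 4. Ece1, near 0, changed sign by DESeq2 (0.011), on centred RPKM (0.045), without BAT 3 and BAT 4 (0.14) and with single libraries left out (-0.15 to 0.027), as did Cldn5 (-0.033 to 0.55).

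In the cells DESeq2 called 2 members, both lower, and RPKM as deposited 0. Eng changed sign without TMM (0.025) and with single libraries left out (-0.21 to 0.084), as did Ece1 (-0.059 to 0.083). With the other reference genes 6 of the same 29 members were higher, and Aplnr (0.22), Sox17 (0.24) and Tek (0.040), the last a gene of that reference, changed sign. How many of all genes were called higher on that scale was not counted. Of the genes of the main reference, outside these counts, Esam (0.61) and Tie1 (0.46) were then called higher, and Clec14a went from -0.22 to 0.14. On the reference scale Icam2 changed sign at a pseudocount of 2 (-0.035) and Sox7 (-0.26) and Sox18 (-0.043) without BAT 3 and BAT 4. With single libraries left out the ranges crossed 0 for Icam2 (-0.13 to 0.23), Sox7 (-0.023 to 0.33), Sox18 (-0.057 to 0.13) and S1pr1 (-0.041 to 0.13). The cause of these changes was not tested.

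The replicate block left 26 members higher and 1 lower between the tissues and called 0 in the cells, where S1pr1 had an adjusted p of 0.107. No pairing by replicate number was evident in the libraries. The labels state none, and the correlations cannot exclude that same-numbered samples share an animal or culture. Correlations of the deviations of same-numbered libraries were -0.0369, -0.0029, -0.0164 and 0.0733 between the tissues and -0.490, 0.318 and -0.258 between the cell conditions, and in neither experiment did every library correlate best with its own number.

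Of the fold changes of single members under the settings other than left-out libraries 555 kept direction and call, 25 lost the call, 18 gained one and 23 changed sign. Depth limits Prox1, Tal1, Flt4 and Clec14a most, with 2, 55, 95 and 153 reads over the 4 BAT libraries.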

Other observations

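With blebbistatin limma called 0.734% of all genes tested in the cells lower and 0.133% higher. Among the genes of the other lists, 67 were tested in the cells, and 5 were called lower and 0 higher. These 5 were chosen after their values were seen. Acta2, the smooth muscle actin of mural cells and other contractile cells, read 197, 304 and 311 CPM in vehicle 1 to 3 and 7.68, 9.64 and 8.61 CPM in blebbistatin 1 to 3 (log2 -4.86, SE 0.19, adjusted p = 5.95e-05). Cnn1, calponin of smooth muscle (log2 -1.76, SE 0.23, adjusted p = 0.0201), and Mcam, an adhesion molecule of mural cells and endothelium (log2 -0.66, SE 0.12, adjusted p = 0.0482), were lower too. Klf2, a factor that endothelium raises under flow, read 20.9, 18.9 and 19.2 CPM in vehicle 1 to 3 and 9.78, 6.43 and 5.46 CPM in blebbistatin 1 to 3 (log2 -1.42, SE 0.21, adjusted p = 0.0307). Ly6a, the stem cell antigen Sca-1, was the remaining gene (log2 -1.03, SE 0.16, adjusted p = 0.0388). In each of the 5 genes, picked by their calls, every blebbistatin library lay below every vehicle library, as in 9.99% of all genes tested. Ucp1 read 123, 52.6 and 26.1 CPM in vehicle 1 to 3 and 8.15, 14.3 and 9.82 CPM in blebbistatin 1 to 3 and did not pass the test (log2 -2.35, SE 0.49, adjusted p = 0.0908). Its blebbistatin libraries all lay below its vehicle libraries. The authors' deposited table, from edgeR, gives Ucp1 as lower (log2 -2.64, adjusted p = 1.89e-07).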
